A study of Mus musculus with 11 samples.

Results

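The mevalonate branch is the stretch of cholesterol synthesis that builds isoprenoid units from acetyl-CoA and joins them into farnesyl diphosphate, geranylgeranyl diphosphate and squalene. The 8 genes described here were taken as a fixed list of symbols, in pathway order Acat2, Mvk, Pmvk, Mvd, Idi1, Fdps, Ggps1 and Fdft1. All 8 were found by Ensembl ID among the 37583 genes counted, and all 8 passed the filter on low counts that left 11900 genes for testing. RNA was measured in 11 lines of mouse granulocyte-monocyte progenitors (GMPs), precursors of neutrophils and monocytes, each grown from a single cell. The 6 wild-type (WT) and 5 Taz knockout (KO) clones were made from fetal livers of C57BL/6 embryos at day 15.5 (E15.5). All of them carry ER-Hoxb8, a hormone-dependent transcription factor delivered by retrovirus that blocks maturation, and were kept immature with 0.5 uM beta-estradiol and stem cell factor at about 50 ng/ml. The KO clones lack tafazzin, the enzyme encoded by Taz that remodels cardiolipin, a phospholipid of the inner mitochondrial membrane. The labels used here do not say how the gene was removed. Each clone is an immortalised line, not a sample of primary progenitors.

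In this pathway Acat2 joins acetyl units at the cytosolic entry, and further enzymes lead to mevalonate. Mvk and Pmvk add phosphates to mevalonate, Mvd removes carbon dioxide to give isopentenyl diphosphate, and Idi1 interconverts that unit with its isomer. Fdps builds farnesyl diphosphate, the branch point at which Fdft1 commits carbon to squalene and sterols while Ggps1 makes geranylgeranyl diphosphate, a lipid anchor for small GTPases. Transcription of most sterol synthesis genes is raised by SREBP2, a membrane-bound factor that is released when sterol is low.

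Libraries held 19778119 to 27431544 gene counts per clone, and WT libraries were the deeper on average. Taz stood at 37.0 to 43.8 CPM, that is, read counts scaled to a common library total, in WT and 2.21 to 4.09 CPM in KO clones, so all 11 libraries matched their labels. Titles carry a number, 1 or 2 in WT and 3 or 4 in KO clones, whose meaning is not given. Since nothing says that clones of 1 genotype came from separate embryos, p-values measure the spread between these clones only. All 9 GMP markers were detected in every clone, some evenly, such as Kit at 515 to 866 CPM, and others over a wide range, such as Elane at 2.26 to 825 CPM. T and NK cell markers summed to at most 0.207 CPM. Hepatocyte markers summed to 3.53 to 17.5 CPM in WT and 8.38 to 23.9 CPM in KO clones, with albumin at most 0.552 CPM. In the same order, monocyte and macrophage markers summed to 543 to 1175 and 970 to 1815 CPM. Erythroid markers summed to 504 to 863 and 766 to 1077 CPM, and megakaryocyte markers to 134 to 253 and 124 to 248 CPM. Fetal liver stroma and endothelium markers summed to 158 to 501 and 281 to 492 CPM. Late neutrophil markers summed to 19.1 to 1531 CPM in WT and 14.96 to 142 CPM in KO clones, with the highest value in WT 2D, and 0 of 6 tested were called. B-lymphoid markers summed to 32.8 to 85.6 CPM in WT and 6.07 to 28.5 CPM in KO clones, with 3 of 7 under 1 CPM in every clone, Pax5 at 0 counts and 1 of 5 tested called lower. Mast cell and basophil markers summed to 985 to 3836 CPM in WT and 2022 to 4738 CPM in KO clones, with 0 of 5 tested called. Among WT clones that sum was lowest in 2D and highest in 2E, the clones with the highest and the lowest summed level of the 8 genes. KO clones did not show this reverse order. Their marker sum was lowest in 3H, which also had the lowest summed level of the 8 genes among KO clones. It was highest in 4K, while the summed level of the 8 genes was highest in 3I. Over all tested genes 5.05% were called, 2.29% lower, in the test given in the next paragraph. The part of the marker genes in the results below was not tested.

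Of the 8 genes, 7 fell in KO clones and 1, Ggps1, did not pass the test. Calls are edgeR quasi-likelihood tests at an adjusted p under 0.05, and in the same fit 5.05% of all tested genes were called, 2.29% lower and 2.76% higher. For each of the 7, every KO clone lay below every WT clone, an order that 3.02% of all tested genes showed, with the reverse order in 2.97%; none of the 8 showed the reverse. The median log2 fold change over the 8 genes was -0.64, beside -0.01 over all tested genes. A clone's RNA comes from many cells, so fewer cells making a transcript and less transcript per cell cannot be told apart.

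**Figure D1:**
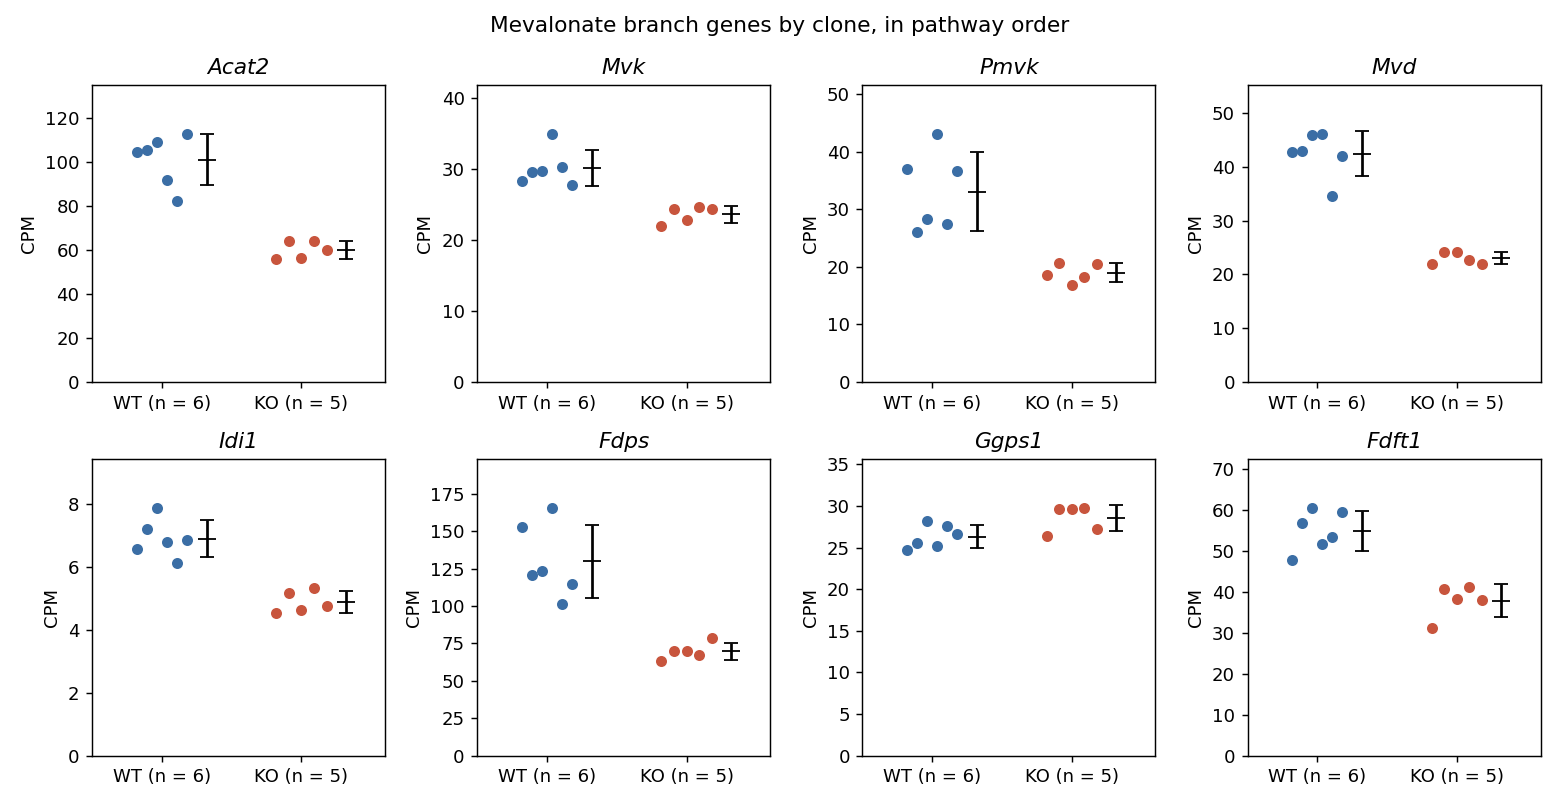
Level of each of the 8 genes in CPM (y axis, from 0), with 1 point per clone for the 6 WT (blue) and 5 KO (red) clones and the mean and SD as a black bar. In 7 panels the KO points lie below all WT points, and in the Ggps1 panel the groups overlap between 26.4 and 28.1 CPM.

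Promoter sequence is shown for genes that fell and for Ggps1, because the set otherwise moved together. RefSeq start sites of GRCm38.p6 gave windows of 250 bases upstream for 6 of the 8 genes (7 windows, as Pmvk has 2), and none was matched for Fdps and Fdft1. The stretches below leave out bases that the annotation assigns to an exon of a protein-coding gene. They run 5′ to 3′ on the gene's strand, with matches to the searched motifs in capitals. Mvd is on the minus strand (chr8:122443423-122443672), Mvk on the plus strand (chr5:114444061-114444268), Acat2 on the minus strand (chr17:12960748-12960975) and Ggps1 on the minus strand (chr13:14063490-14063603).
Mvd: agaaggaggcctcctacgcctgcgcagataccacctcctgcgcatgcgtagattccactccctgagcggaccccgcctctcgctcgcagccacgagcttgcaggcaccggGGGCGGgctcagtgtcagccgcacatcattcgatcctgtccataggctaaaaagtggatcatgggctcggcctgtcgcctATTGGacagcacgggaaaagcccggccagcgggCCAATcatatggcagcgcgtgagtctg
Mvk: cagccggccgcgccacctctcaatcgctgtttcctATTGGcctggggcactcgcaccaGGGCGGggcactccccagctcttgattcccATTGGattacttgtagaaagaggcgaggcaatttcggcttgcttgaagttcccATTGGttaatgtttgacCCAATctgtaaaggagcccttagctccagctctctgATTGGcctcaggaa
Acat2: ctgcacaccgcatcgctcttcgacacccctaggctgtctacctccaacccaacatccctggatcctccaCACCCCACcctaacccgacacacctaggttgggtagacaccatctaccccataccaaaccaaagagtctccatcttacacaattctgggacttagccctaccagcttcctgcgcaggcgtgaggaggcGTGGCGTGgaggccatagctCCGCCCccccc
Ggps1: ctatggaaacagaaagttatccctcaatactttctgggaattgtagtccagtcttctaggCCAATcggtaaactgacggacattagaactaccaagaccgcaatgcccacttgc

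The motifs searched on both strands were CCAAT, the core bound by NF-Y, GGGCGG, the GC box bound by Sp1, the sterol regulatory element written as TCACNCCAC, and its shorter form CACNCCAC, which lies inside the longer one. CCAAT was found in 5 of the 7 windows, against 33.8% of 32851 windows of the same length. These belong to 5 of the 6 genes, and the 5 include Ggps1. Mvk had 5 CCAAT matches in 208 printed bases, the nearest 14 to 10 bases before the start, and Mvd had 2, at 60 to 56 and 27 to 23 bases before it. Ggps1 had 3 in its whole window, of which 1 is printed. The 2 matches in the window of Idi1 lie in its own annotated exon and are not shown. GGGCGG occurred in 4 of the 7 windows, in 4 of the 6 genes (32.7% of all windows). TCACNCCAC occurred in none of the 7 windows (1.05% of all windows), and CACNCCAC occurred only in that of Acat2, with 2 matches (5.29%). A match is a run of letters and not a measured site, and a missing match says only that these letters are not in this window.

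The intergenic stretch of Mvk also starts the gene Mmab on the other strand, an enzyme of cobalamin metabolism. Mmab stood at 38.004 ± 2.60 CPM in WT (SD, n = 6) and 32.4 ± 2.39 CPM in KO clones (SD, n = 5), with a change of -0.23 ± 0.06 on the log2 scale (SE) that did not pass (edgeR adjusted p = 0.0644). Arid4b, which starts opposite Ggps1, had one of -0.06 ± 0.08 (edgeR adjusted p = 0.725). Both neighbours were looked up because the windows touch their exons, outside the rule for named genes.

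At the entry to the pathway, Acat2 (ENSMUSG00000023832, chr17:12942890-12960747 on the minus strand of GRCm38), the cytosolic acetoacetyl-CoA thiolase, was the most abundant of the 8 per length. It ranged from 82.2 through a median of 105 to 113 CPM in WT clones, while the KO values were 56.0 (3H), 64.0 (3I), 56.3 (4J), 64.1 (4K) and 60.1 CPM (4L). KO values below are given in this order of clones. The lowest WT clone, 2E, was still well above the highest KO clone. The log2 fold change was -0.75 ± 0.08 (SE; edgeR adjusted p = 0.00117), a fall of 40.5%. Acat1, the mitochondrial thiolase, catalyses the same chemistry for ketone and isoleucine metabolism. It stood at 130 to 136 CPM in WT and 124 to 144 CPM in KO clones, and its log2 fold change was -0.02 ± 0.04 (edgeR adjusted p = 0.840).

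Within each clone, log2 CPM of Acat2 minus that of Acat1 was -0.40 ± 0.16 in WT (SD, n = 6) and -1.12 ± 0.09 in KO clones (SD, n = 5). The means differed by -0.72, and 5 of 5 KO clones lay below every WT clone (two-sided exact permutation test over 462 splits, p = 0.00216, adjusted p = 0.00216 over 2 ratios, the smallest that these splits can give). Acat2 alone already placed every KO clone below every WT clone, so this test is not separate support for its fall.

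The 2 kinases that follow mevalonate fell by different amounts. Mevalonate kinase, Mvk (ENSMUSG00000041939, chr5:114444269-114460591 on the plus strand of GRCm38), ranged from 27.7 through 29.7 to 34.8 CPM in WT clones, with 2D highest, and was 21.9, 24.4, 22.8, 24.7 and 24.3 CPM in the KO clones. The groups did not overlap, but the gap between the nearest clones was small. The log2 fold change, -0.35 ± 0.06 (SE; edgeR adjusted p = 0.0135), was the smallest among the 7 that fell. Phosphomevalonate kinase, Pmvk (ENSMUSG00000027952, chr3:89454541-89469013 on the plus strand of GRCm38), ranged from 26.1 through 32.5 to 43.0 CPM in WT clones. In the KO clones it was 18.6, 20.6, 16.8, 18.2 and 20.6 CPM. WT clones 1A, 2D and 2F were high and 1B, 1C and 2E low, a spread of 20.5% (SD over mean) against 8.72% in KO clones. The log2 fold change was -0.80 ± 0.14 (SE; edgeR adjusted p = 0.00947).

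Mevalonate diphosphate decarboxylase, Mvd (ENSMUSG00000006517, chr8:122433601-122443422 on the minus strand of GRCm38), makes isopentenyl diphosphate. Its WT clones ranged from 34.6 through 42.9 to 46.0 CPM, with 2E low, and the KO clones lay close together at 21.9, 24.2, 24.2, 22.7 and 22.0 CPM. By p it ranked 2 among all 11900 tested genes, with a log2 fold change of -0.88 and a 95% confidence interval from -1.04 to -0.72. Isopentenyl diphosphate isomerase, Idi1 (ENSMUSG00000058258, chr13:8885501-8892451 on the plus strand of GRCm38), was the least abundant, with 89 to 198 reads per library. It ranged from 6.11 through 6.81 to 7.87 CPM in WT clones and was 4.52, 5.18, 4.63, 5.32 and 4.77 CPM in the KO clones. The groups again did not overlap, and the log2 fold change was -0.50 ± 0.10 (SE; edgeR adjusted p = 0.0191). Idi1 lost its call without KO 3H (edgeR adjusted p = 0.0519) or KO 4J (0.0523), and was the only one of the 7 to lose it when 1 clone was left out.

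Farnesyl diphosphate synthase, Fdps (ENSMUSG00000059743, chr3:89093588-89101959 on the minus strand of GRCm38), changed by about as much as Mvd. WT clones ranged from 102 through 122 to 165 CPM, with 1A and 2D at 153 and 165 CPM above the other 4, which lay between 102 and 124 CPM. The KO clones were at 63.1, 70.3, 69.8, 67.6 and 78.5 CPM, all below the lowest WT clone. The log2 fold change was -0.89 ± 0.12 (SE; edgeR adjusted p = 0.00354), a fall of 46.2%. Which of Fdps and Mvd changed more turned with the clones used, at -0.81 and -0.86 without WT 2D and -0.96 and -0.94 without WT 2E.

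The products of Fdps are shared by both enzymes of the branch point, and these did not move together. Squalene synthase, Fdft1 (ENSMUSG00000021273, chr14:63145150-63179578 on the minus strand of GRCm38), ranged from 47.8 through 55.2 to 60.5 CPM in WT clones and was 31.2, 40.7, 38.3, 41.1 and 38.05 CPM in the KO clones. Its log2 fold change was -0.54 ± 0.08 (SE; edgeR adjusted p = 0.00633). Geranylgeranyl diphosphate synthase, Ggps1 (ENSMUSG00000021302, chr13:14050659-14063488 on the minus strand of GRCm38), ranged from 24.7 through 26.1 to 28.1 CPM in WT clones and was 26.4, 29.7, 29.7, 29.7 and 27.3 CPM in the KO clones. Here 3 KO clones lay above all WT clones and the groups overlapped. The log2 fold change of Ggps1 was 0.12 with a 95% confidence interval from 0.00 to 0.24 (edgeR adjusted p = 0.240), that is, a fold of 1.00 to 1.18, which holds no fall of the size seen in the other 7.

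**Figure D2:**
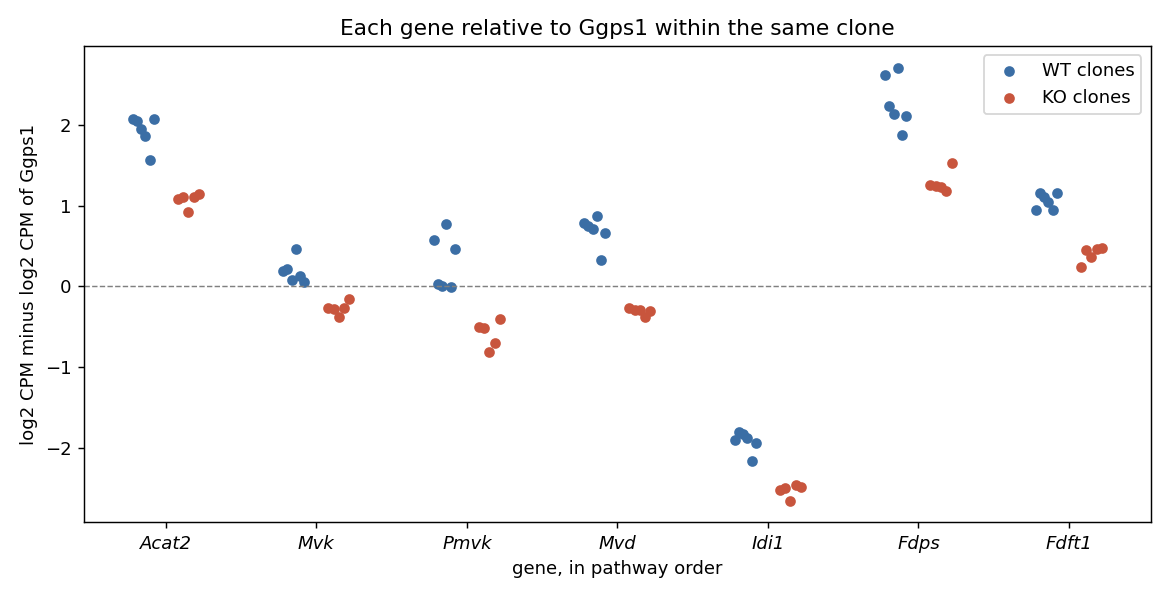
Log2 CPM of each of the other 7 genes minus log2 CPM of Ggps1 in the same clone (y axis) for WT (blue) and KO (red) clones, 1 point per clone. The KO points lie below the WT points for each gene, with mean differences from -0.46 for Mvk to -0.99 for Mvd and Fdps.

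Within each clone, log2 CPM of Fdft1 minus that of Ggps1 was 1.06 ± 0.10 in WT (SD, n = 6) and 0.40 ± 0.10 in KO clones (SD, n = 5). WT 1A, 1B and 1C were at 0.95, 1.16 and 1.10, WT 2D, 2E and 2F were at 1.04, 0.95 and 1.16, and the KO clones were at 0.24, 0.45, 0.37, 0.47 and 0.48. The shift of -0.66 separated all clones (two-sided exact permutation test over 462 splits, p = 0.00216, adjusted p = 0.00216 over 2 ratios, the smallest possible). Fdft1 alone already placed every KO clone below every WT clone, so this test is not separate support for its fall. Set against Ggps1 in this way without a test, each of the other 6 genes also had every KO clone below every WT clone, from Mvk (-0.46) to Fdps (-0.99). Each of the 6 showed that order on its own as well.

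Levels per kilobase of exon had the same order of means in both genotypes. In WT clones they were 39.7 ± 4.56 CPM per kilobase for Acat2, 30.9 ± 5.77 for Fdps, 22.8 ± 2.25 for Mvd, 19.3 ± 3.96 for Pmvk, 13.01 ± 1.154 for Fdft1, 11.2 ± 0.944 for Mvk, 5.57 ± 0.293 for Ggps1 and 1.97 ± 0.170 for Idi1 (SD, n = 6). Of the 28 pairs of genes, 23 had WT ranges that did not overlap. The ranges of Acat2 and Fdps, Fdps and Mvd, Fdps and Pmvk, Mvd and Pmvk, and Fdft1 and Mvk did overlap. In KO clones the same order ran from 23.6 ± 1.55 CPM per kilobase for Acat2 and 16.6 ± 1.33 for Fdps down to 8.96 ± 0.936 for Fdft1, 8.83 ± 0.452 for Mvk, 6.05 ± 0.337 for Ggps1 and 1.39 ± 0.0992 for Idi1 (SD, n = 5). KO ranges of Fdft1 and Mvk overlapped, as did those of Mvd and Pmvk, so the order within each of these pairs is not set. Exon lengths come from an annotation of GRCm38, not from the build of the counts, so these levels are approximate. Reads that fitted several places or genes are not among the gene counts, yet the full exon length was the divisor. Genes that share stretches with others, given in the next paragraph, may thus stand too low. How far this moved the order was not tested.

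Reads that could belong to a copy or an overlapping gene touch several of the 8. Of all 50-base stretches in annotated transcripts of Acat2, 39.1% also occur in its near-copy Acat3 and 11.2% in Tcp1. The share that occurs in some other gene was 26.5% for Fdft1, 26.2% for Fdps, 25.3% for Idi1, 9.58% for Ggps1 and 0.712% for Mvk. For Mvd and Pmvk the share was 0%. The part of such reads in the results was not tested. Counting ignored strand, and the exons of 4 of the 8 genes share bases with another gene. The share was 26.7% for Fdps, with Gm43738 on the same strand, which was not among the tested genes. It was 9.22% for Idi1 (Gm48574) and 5.44% for Ggps1 (Arid4b), both on the other strand. The exons of Fdft1 share 18.3% of their bases with Ctsb, the protease cathepsin B, on the other strand. Ctsb stood at 189 ± 19.4 CPM in WT and 189 ± 14.995 CPM in KO clones (SD, n = 6 and 5; log2 fold change 0.00 ± 0.08, SE; edgeR adjusted p = 0.997).

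Among the clones of 1 genotype, some stood low or high for several of the 8 genes, but not for all. Whether the genes moved together within a genotype was not tested. KO 3H had the lowest KO value for 7 of the 8, Pmvk being the exception, and it was also the shallowest library, at 19778119 gene counts. KO 4L, at 19913625 gene counts, was the lowest KO clone for 0 of the 8. KO 4K had the highest KO value for 5, but ranked 4 among KO clones for Pmvk and Fdps. WT 2E was the lowest WT clone for 4 of the 8 and WT 2D the highest for 4. Counted from the highest of 6, WT 2D ranked 5 for Acat2, Ggps1 and Fdft1, and WT 2E ranked 2 for Mvk and Ggps1. Summed over the 8, levels ran from 363 to 465 CPM in WT and from 244 to 279 CPM in KO clones. Without KO 3H the log2 fold changes of the 7 that fell were between -0.32 for Mvk and -0.86 for Mvd and Fdps.

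**Figure D3:**
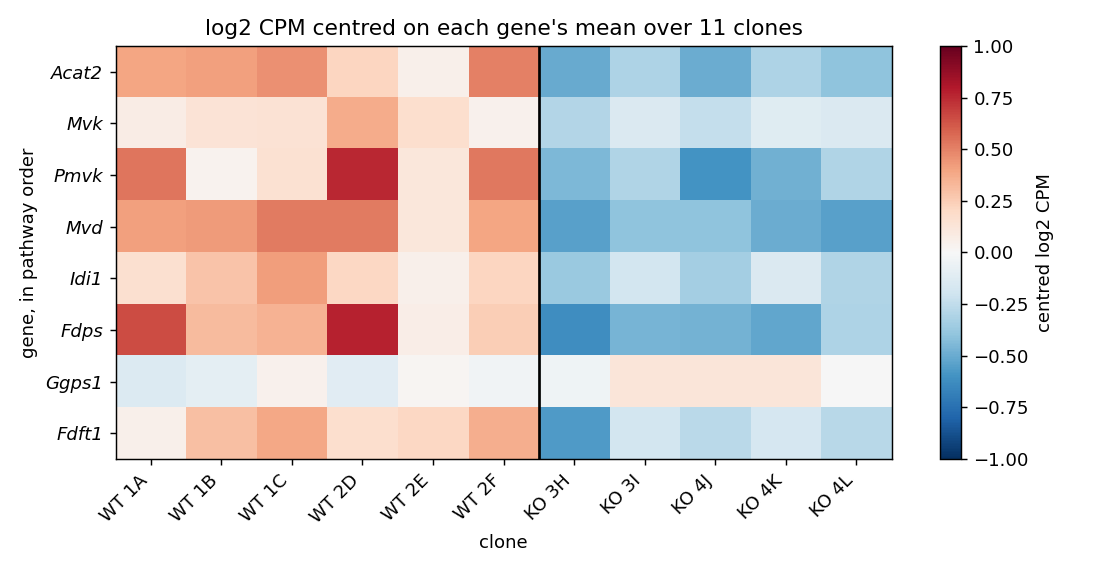
Log2 CPM of the 8 genes (rows, in pathway order) in the 11 clones (columns, WT left and KO right of the line), centred on each gene's mean over all clones, with colour from -1 (blue) to 1 (red). The 7 genes that fell are red or near white in WT and blue in KO clones, deepest red for Fdps and Pmvk in WT 2D, while Ggps1 is pale throughout.

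Between title numbers of the same genotype, no difference passed for any of the 8 genes. These contrasts rest on few clones and do not show that levels were equal. Between WT numbers 2 and 1 the largest difference was that of Pmvk, 0.23 ± 0.18 on the log2 scale (SE), with a mean of 35.8 CPM against 30.5 CPM (unadjusted p = 0.235, edgeR). Between KO numbers 4 and 3 it was that of Fdft1, 0.12 ± 0.13 (39.2 against 36.0 CPM; unadjusted p = 0.378, edgeR). edgeR called 0 of 11900 genes in either contrast (0% of tested genes), and limma-voom also called 0. At an unadjusted edgeR p under 0.05 there were 372 genes in the WT contrast and 161 in the KO contrast (3.13% and 1.35% of tested genes). Leaving out number 1, 2, 3 or 4, which leaves fewer clones, left 2, 6, 3 and 1 of the 8 genes called lower. Mvd was called each time, and fewer of all tested genes were called as well. All 7 log2 fold changes stayed negative. That of Pmvk was -0.92, -0.68, -0.84 and -0.75 in these fits, and that of Mvk -0.39, -0.31, -0.33 and -0.37.

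Beyond squalene, the enzymes that turn it into cholesterol fell as well. Of 12 tested, 9 fell and 0 rose, beside 2.29% lower and 2.76% higher of all tested genes. The median log2 fold change of the 12 was -0.43. Nsdhl, a sterol dehydrogenase that helps remove methyl groups, had a log2 fold change of -0.61 ± 0.06 (SE), lanosterol synthase, Lss, one of -0.65 ± 0.06, the final reductase Dhcr7 one of -0.52 ± 0.07 and squalene epoxidase, Sqle, one of -0.38 ± 0.05 (edgeR adjusted p = 0.000850, 0.000985, 0.00220 and 0.00423). Those that did not pass were Hsd17b7 (-0.30 ± 0.08), Tm7sf2 (-0.59 ± 0.21) and Lbr (0.04 ± 0.06), a nuclear envelope protein with sterol reductase activity (edgeR adjusted p = 0.0518, 0.141 and 0.786). Leaving out title number 1, 3 or 4 brought the 9 down to 2, 4 and 2, where fewer of all tested genes were called as well. Whether the mevalonate branch fell more than these enzymes was not tested.

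Before the pathway, carriers of acetyl units fell in part. Of 5 tested genes for acetyl-CoA supply and related reactions, 2 fell and 0 rose. Over all tested genes 2.29% were called lower and 2.76% higher. The mitochondrial citrate carrier, Slc25a1, went from 143 ± 12.3 to 103 ± 3.92 CPM (SD, n = 6 and 5; log2 fold change -0.47 ± 0.06, SE; edgeR adjusted p = 0.00231). ATP citrate lyase, Acly, which splits exported citrate, went from 761 ± 35.1 to 608 ± 43.6 CPM (log2 fold change -0.32 ± 0.05; edgeR adjusted p = 0.00687). Both calls ended without title number 1 or 4, where fewer of all tested genes were called as well. The isomerase paralogue Idi2 was below the filter, at a mean level of 0.00805 CPM over the 11 clones.

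Of 9 tested genes of sterol sensing, uptake and SREBP processing, 2 fell and 0 rose. Over all tested genes 2.29% were called lower and 2.76% higher. The median of all 9 was -0.18 on the log2 scale. The sterol transfer protein Stard4 fell by 0.61 ± 0.09 on the log2 scale (SE), and Srebf2, which encodes SREBP2, by 0.21 ± 0.05 (edgeR adjusted p = 0.00644 and 0.04996). Srebf2 was just inside the threshold and its groups overlapped, at 363 to 429 CPM in WT and 325 to 368 CPM in KO clones. Insig1, which retains SREBP in the endoplasmic reticulum, had a log2 fold change of -0.44 ± 0.13, Srebf1 one of -0.18 ± 0.07 and the SREBP escort Scap one of -0.10 ± 0.05 (edgeR adjusted p = 0.0851, 0.189 and 0.276). Without WT 2D, 4 were called lower, Insig1 among them. Leaving out WT 1A gave a count of 2, and leaving out any of the remaining 9 clones, WT or KO, a count of 1.

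**Figure D4:**
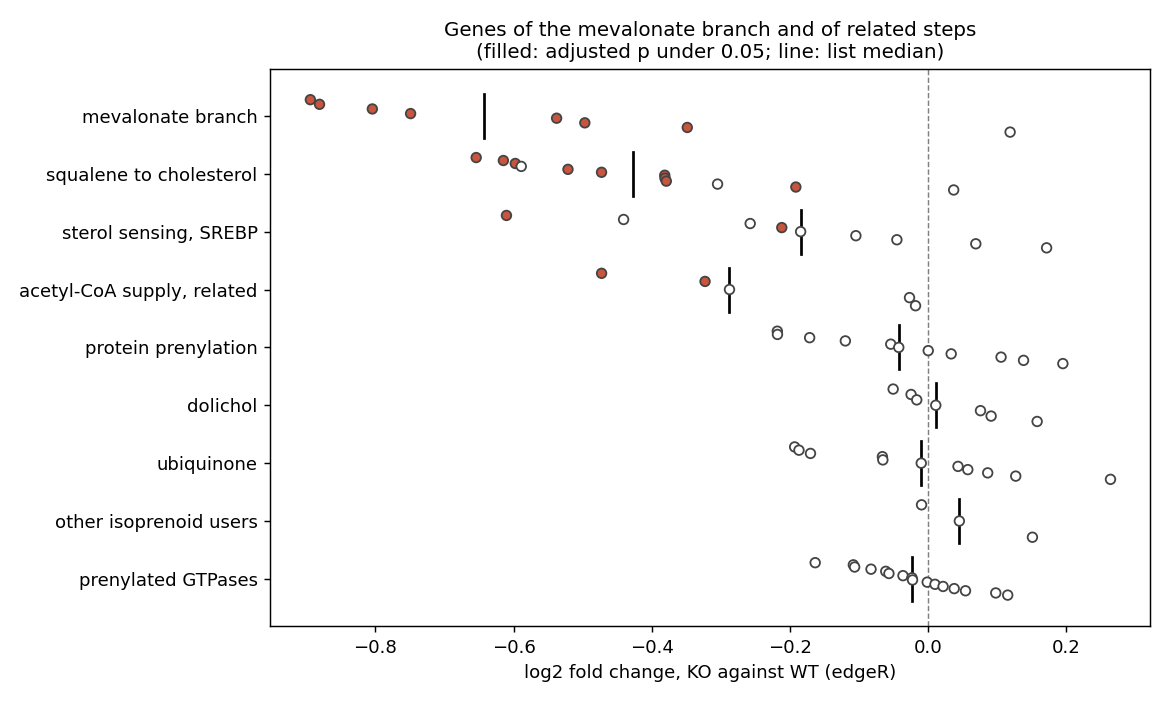
Log2 fold change, KO against WT (x axis), of each tested gene of the mevalonate branch and of 8 related gene lists (rows), filled where the edgeR adjusted p was under 0.05, with the list median as a black line. Filled points lie left of 0 in the upper 4 rows, and the lower 5 rows, which hold users of isoprenoids, have none.

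Users of the isoprenoid products were not called in any of 5 lists. edgeR called 0 of 11 protein prenylation genes, 0 of 7 dolichol genes, 0 of 11 ubiquinone genes, 0 of 3 other isoprenoid users and 0 of 16 prenylated small GTPases in either direction, beside 5.05% of all tested genes. Their median log2 fold changes were -0.04, 0.01, -0.01, 0.05 and -0.02, beside -0.01 over all tested genes. At an unadjusted p under 0.05, 4, 0, 1, 0 and 1 of them were lower and 2, 0, 0, 0 and 2 higher, where 20.3% of all tested genes were at such a p in either direction. limma-voom called 0 in each list. DESeq2 called the farnesyltransferase subunits Fnta and Fntb lower, the GTPase Rac1 lower and Rab5a higher, and 0 in the other 3 lists. Without WT 2D, edgeR called Rab5a higher.

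Log2 fold changes ran from -0.22 to 0.19 among prenylation genes, from -0.05 to 0.16 among dolichol genes, from -0.19 to 0.26 among ubiquinone genes and from -0.16 to 0.12 among small GTPases. The most abundant gene of each of these lists is named here. Zmpste24, the protease that trims farnesylated prelamin A, had a log2 fold change of -0.22 ± 0.08 (SE), Nus1, a subunit of the dolichol-forming cis-prenyltransferase, one of -0.02 ± 0.07, Coq9, which binds ubiquinone intermediates, one of 0.04 ± 0.06, and Rac2, the blood cell GTPase anchored by a geranylgeranyl group, one of -0.02 ± 0.07 (edgeR adjusted p = 0.169, 0.876, 0.748 and 0.887). Among other users, Cox10, which attaches a farnesyl group to heme, had one of 0.15 ± 0.08 and the transfer RNA prenyltransferase Trit1 one of 0.05 ± 0.07 (edgeR adjusted p = 0.317 and 0.787). A difference that misses the threshold does not show that levels were equal, and whether these lists differ from the mevalonate branch was not tested.

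Across the 11 clones, the profiles most like the mean of the 8 genes were found by the root mean square difference of centred log2 CPM, computed for 9290 genes of at least 5 CPM. Genes among the 10 closest included Nsdhl (0.0840), Lss (0.0963), the retinol dehydrogenase Rdh11 (0.0983), Sqle (0.103), Stard4 (0.105), Aacs (0.108), Mapk3 (0.116), Dhcr7 (0.120) and Hexim1 (0.121), where the median gene was at 0.322. Aacs, which activates acetoacetate in the cytosol for lipid synthesis, went from 122 ± 4.97 to 91.7 ± 4.56 CPM (SD, n = 6 and 5; log2 fold change -0.41 ± 0.04, SE; edgeR adjusted p = 0.000985). Mapk3 encodes the kinase ERK1 and Hexim1 an inhibitor of transcription elongation. Among the 8 genes themselves Idi1 lay nearest to their mean (0.0845) and Ggps1 farthest (0.355). The measure rewards any gene with a similar step between genotypes, and the points share their libraries.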

How the data were processed

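The authors deposited raw read counts per Ensembl gene, 1 set per clone, with STAR, HTSeq, edgeR and the build mm9 named, per the submitters' processing notes; their versions and the annotation are not given there. Per the labels' protocols, total RNA was polyA-selected into strand-specific libraries, but the names of the deposited tables mark the counting as unstranded. The counter's own totals were kept out of library sizes. Reads in no gene came to 5.41 to 6.94% per clone and ambiguous reads to 2.70 to 2.93%. These are shares of gene, no-gene and ambiguous counts together. Alignments that were not unique lie outside these shares, and came to 17279512 (KO 3H) to 22653435 (WT 1B) per clone. Of 37583 IDs, 32860 (87.4%, with 99.6% of counts) matched symbols of GENCODE M21 (GRCm38), used for names, lengths and overlaps.

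Genotypes were tested in edgeR by the quasi-likelihood method with its robust option (TMM, filterByExpr, Benjamini-Hochberg over 11900 genes; called under 0.05). CPM use TMM-scaled library sizes, and log2 CPM for ratios, profiles and the heat map a prior count of 2. Each SE was derived from the F statistic and the log2 fold change. For ratios, all splits of the clones were enumerated (exact permutation, two-sided). Contrasts between title numbers came from a fit with 4 set means. The edgeR, DESeq2 and limma-voom fits were tested on simulated counts. The 8 genes and all lists were chosen with earlier results of these data known. Named genes are the 8, Taz, Srebf1, Srebf2, Scap, Insig1, Acat1 and the closest profiles. Each related list gave up to 4 called genes of smallest adjusted p or else the most abundant, and lists of at most 3 all genes. Fnta, Fntb, Rac1, Rab5a, Hsd17b7, Tm7sf2, Lbr, Mmab, Arid4b, Ctsb, Acat3, Tcp1, Gm43738, Gm48574 and Idi2 were added later. Not every gene the rule takes is reported here. edgeR 4.0.16, DESeq2 1.42.0 and limma 3.58.1 ran under R 4.3.3, and figures were drawn with matplotlib 3.10.9 under Python 3.11.15.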

Additional observations from a re-analysis of the deposited data

Results flagged for a closer look

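Each of 22 sets of values (8 genes, Taz and 2 ratios in WT and in KO clones) was searched for a clone set apart from its group by Dixon's 95% criterion, which chance meets in about 1 of 20 sets, and 3 were found. Mvd in WT 2E was low, at 34.6 CPM against 42.1 to 46.0 CPM in the other WT clones. Mvk in WT 2D was high, at 34.8 CPM against 27.7 to 30.3 CPM. The log2 ratio of Acat2 to Acat1 in KO 3I was -0.96, against -1.19 to -1.13 in the other KO clones, which is nearer to the WT clones. Without WT 2E, WT 2D or KO 3I the count of genes of the branch called lower was 7 each time.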

How the results depend on the processing

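All 7 falls kept their sign in each of 26 alternatives. The count of the 8 genes called lower was 7 with RLE or upper-quartile factors, without a filter or with a stricter one (5 CPM in 5 clones), with DESeq2, limma-voom, a test without the robust option, set means, thinning to equal depth and without the 10 most abundant genes, and 6 to 7 without 1 clone. Dropping title number 1, 2, 3 or 4 gave 2, 6, 3 and 1, and summing the counts of each number gave 4; those fits hold fewer samples. Ggps1 was positive and not called in any (adjusted p from 0.185 to 0.686). Without 1 clone the ratios shifted by -0.68 to -0.62 (Fdft1 to Ggps1) and by -0.77 to -0.69 (Acat2 to Acat1); groups that do not overlap cannot overlap with a clone left out, so the permutation p says nothing of stability.

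Over all genes, 273 were called lower and 328 higher. These became 154 and 175 without a filter, 621 and 640 with DESeq2, 129 and 178 with set means, 77 and 120 with summed counts, and 18 and 27, 118 and 178, 36 and 56, and 8 and 24 without title number 1, 2, 3 or 4. Without 1 clone they ran from 103 to 320 and from 137 to 419, lowest without KO 3I and highest without WT 2D.

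The squalene-to-cholesterol count of 9 was 7 to 9 without 1 clone and 2, 4 and 2 without title number 1, 3 or 4. The sterol sensing count of 2 was 1 with RLE, upper-quartile factors, no filter, limma-voom, set means, summed counts or without title number 2 or 3, 0 without 1 or 4, 4 with DESeq2 and 1 to 4 without 1 clone. The acetyl-CoA count of 2 was 1 with summed counts and 0 without title number 1 or 4. Prenylation genes called lower numbered 2 with DESeq2, and small GTPases 1 lower and 1 higher with DESeq2, 1 higher with the stricter filter and 0 to 1 higher without 1 clone (1 without WT 2D). Causes were not tested. No paired analysis was possible because WT and KO titles share no number.

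Idi1 had the fewest reads of the 8 genes, 89 to 198 per library.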
